A study of Mus musculus with 16 samples.

Results

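Chemokines and their receptors were followed across the inguinal and epididymal fat of obese mice. They were taken as every probe whose array name begins with CCL, CXCL, CX3CL, XCL, CCR, CXCR, CX3CR or XCR directly followed by a digit, a rule that uses no measured value. It gave 67 of 25697 probes, for 53 genes, of which 35 encode ligands and 18 receptors. Of these genes 35 were measured (26 ligands and 9 receptors), meaning that 4 or more of the 16 arrays detected a probe of the gene at p under 0.05. The measured genes had 47 kept probes, and 23 of the genes were detected on all 16 arrays. CXCL4 is reported as Pf4, CCL27 as Ccl27a and CXCR7 as Ackr3, their current names.

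All animals were singly housed male C57BL/6J mice made obese with a high-fat diet (60% of energy as fat) and were 17 weeks old at the start and 21 weeks old at the end. For 4 weeks they ate that diet unsupplemented (control) or containing 1% w/w of an ethanolic extract of Artemisia scoparia, a plant of the wormwood genus (scoparia). Inguinal white fat (iWAT), a subcutaneous depot, and epididymal white fat (eWAT), a visceral depot, gave 4 arrays in each diet, 16 in all. The comparisons ask what the extract altered in each depot and how the depots differ. Values are normalized log2 intensities, group means are given ± SD (n = 4 arrays) and log2 changes ± SE. Adjusted p values are from limma over all 11050 measured genes, with a threshold of 0.05, and intensities of different probes are not comparable.

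Chemokines are small secreted proteins that steer leukocytes through G protein-coupled receptors on the cell surface. Homeostatic, or lymphoid, chemokines such as Ccl19, Ccl21 and Cxcl13 lay out the T cell zones and B cell follicles of lymph nodes, and act through Ccr7 and Cxcr5. Inflammatory chemokines such as Ccl2, Ccl3 and Ccl5 draw monocytes, macrophages and T cells into stressed tissue, and in obesity they are best known from visceral fat, where macrophages gather.

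The promoters of 5 members are shown, because the depot comparisons below turn on genes of these kinds. They are 3 lymphoid ligands and 1 lymphoid receptor with positive depot changes in scoparia mice, of which Ccl19, Cxcl13 and Ccr6 passed the test there and Ccl21a did not, and Ccl9, a ligand lower in iWAT in both diets. Each runs from 250 bases before to 50 bases after the RefSeq start site, on the gene's strand, 5′ to 3′, in GRCm38.p6. The windows are those of Ccl19 (chr4:42756316-42756615, minus strand), Ccl21a (chr4:42773942-42774241, minus strand), Cxcl13 (chr5:95956689-95956988, plus strand), 1 of the Ccr6 promoters (chr17:8242276-8242575, plus strand) and Ccl9 (chr11:83578587-83578886, minus strand). Capitals mark matches to a kappaB-type motif (GGG, 3 bases of any kind, then TTCC) and to TATAAA, both searched on either strand.
Ccl19: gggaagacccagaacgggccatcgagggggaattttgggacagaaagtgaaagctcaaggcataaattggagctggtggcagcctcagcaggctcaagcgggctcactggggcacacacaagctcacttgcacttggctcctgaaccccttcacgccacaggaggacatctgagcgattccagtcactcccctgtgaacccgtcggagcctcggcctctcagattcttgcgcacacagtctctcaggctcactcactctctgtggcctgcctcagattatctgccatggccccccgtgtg
Ccl21a: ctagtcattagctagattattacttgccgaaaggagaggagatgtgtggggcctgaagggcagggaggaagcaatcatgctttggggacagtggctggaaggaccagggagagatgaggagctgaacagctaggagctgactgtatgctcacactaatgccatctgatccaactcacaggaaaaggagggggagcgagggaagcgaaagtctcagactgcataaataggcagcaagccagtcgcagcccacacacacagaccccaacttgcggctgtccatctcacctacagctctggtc
Cxcl13: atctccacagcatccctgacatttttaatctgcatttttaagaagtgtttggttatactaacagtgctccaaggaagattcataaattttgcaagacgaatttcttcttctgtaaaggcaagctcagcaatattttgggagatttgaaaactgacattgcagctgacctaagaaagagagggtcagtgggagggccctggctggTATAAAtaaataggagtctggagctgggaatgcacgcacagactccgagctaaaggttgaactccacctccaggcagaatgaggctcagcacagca
Ccr6: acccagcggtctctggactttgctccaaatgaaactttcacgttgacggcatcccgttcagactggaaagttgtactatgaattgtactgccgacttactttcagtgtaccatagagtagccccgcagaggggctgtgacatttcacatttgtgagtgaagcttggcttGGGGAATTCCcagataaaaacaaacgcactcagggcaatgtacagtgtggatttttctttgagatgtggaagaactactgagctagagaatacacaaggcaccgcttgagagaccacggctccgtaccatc
Ccl9: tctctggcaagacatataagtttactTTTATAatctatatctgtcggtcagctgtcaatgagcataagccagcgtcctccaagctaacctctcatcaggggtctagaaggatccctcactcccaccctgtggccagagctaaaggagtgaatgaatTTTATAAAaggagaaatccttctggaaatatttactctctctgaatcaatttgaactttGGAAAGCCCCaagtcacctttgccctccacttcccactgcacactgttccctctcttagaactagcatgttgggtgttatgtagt

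The Ccr6 promoter shown held GGGGAATTCC from base -81 on, while the other Ccr6 promoter, not shown, held neither motif. The Ccl9 promoter held GGAAAGCCCC from base -35 on, a match on the other strand. The Cxcl13 promoter held TATAAA from base -46 on. In the Ccl9 promoter the TATAAA motif matched at -224 and -94 on the other strand and at -92 on the gene's own, the latter 2 overlapping. Neither motif occurred in the windows of Ccl19 and Ccl21a. Over all 32851 promoters in the table, 5.56% held the kappaB-type motif and 13.6% held TATAAA, against 9 and 11 of the 42 promoters found for 38 member genes. A match describes letters only.

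Between 50.5% and 56.2% of probes were detected per array. The mean log2 level of 10 adipocyte markers was 10.77 to 12.18 on every array. Mesothelial markers, which belong to visceral fat, lay at 5.36 to 5.62 in iWAT and at 7.51 to 8.62 in eWAT. On a principal component analysis iWAT control arrays 1 and 4 stood apart from the other iWAT arrays and eWAT control array 2 from the other eWAT arrays. These are bulk tissues, so fewer cells of a type and less RNA per cell cannot be told apart.

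In iWAT, the lymphoid chemokines and receptors stood higher in scoparia mice than in control mice, but with a wide spread between arrays, and 1 of them, the receptor Ccr6, passed the test. All 8 measured genes of the lymphoid list were positive, with a median log2 change of 1.75, against -0.06 over all genes, of which 45.6% were positive. The list was chosen with earlier results of these data known. It holds the receptors Ccr6 and Cxcr4 but not their ligands Ccl20 and Cxcl12. Of the 13 measured members in neither the lymphoid nor the inflammatory list, 5 were positive, with a median of -0.20. Among all 35 measured members, 2 passed in iWAT: Ccr6 rose and the ligand Ccl27a fell. That is 5.71% of the members, against 8.8% of all genes tested, of which 4.41% rose and 4.39% fell. At an unadjusted p under 0.05 the shares were 34.3% (12 members) and 32.8%.

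Ccr6 is the receptor for Ccl20 and sits on B cells and on some T cells and dendritic cells. Its log2 level was 4.98, 7.79, 5.88 and 5.81 on iWAT control arrays 1 to 4, against 6.72, 8.15, 8.78 and 9.47 on iWAT scoparia arrays 1 to 4. Control array 2 lay above scoparia array 1, so that the groups overlapped, and the probe was not detected on control array 1. Ccr6 rose by 2.17 ± 0.54, which is 4.49-fold (limma adjusted p = 0.0301). A second Ccr6 probe stood at 1.24 (adjusted p = 0.0529 with every probe tested singly).

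Ccl27a encodes a ligand of Ccr10, known from skin, where it attracts T cells. In iWAT it stood at 7.90, 8.61, 8.76 and 8.60 in control mice, against 7.91, 7.22, 7.15 and 7.61 in scoparia mice. The groups met at control array 1 and scoparia array 1, and the other control arrays lay above all scoparia arrays. Ccl27a fell by 0.99 ± 0.25 (1.99-fold, limma adjusted p = 0.0314), and its other probe stood at -0.84 (adjusted p = 0.0216). Ccl27a has near-identical gene copies, so the source of the signal is uncertain.

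Both calls were lost when certain single arrays were left out, while the changes kept their direction. With single arrays left out, the change ran from 1.77 to 2.73 for Ccr6 and from -1.17 to -0.89 for Ccl27a. Neither Ccr6 nor Ccl27a passed without iWAT control array 1 (adjusted p = 0.0994 and 0.0522) or 4 (0.105 and 0.107). Nor did they pass without iWAT scoparia array 2 (0.0602 and 0.0733), 3 (0.0978 and 0.102) or 4 (0.0755 and 0.0564). Without both iWAT control arrays 1 and 4, the Ccr6 change was 1.44 (adjusted p = 0.344) and that of Ccl27a -1.19 (adjusted p = 0.135).

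The Ccr7 ligands Ccl21a and Ccl21c had the largest iWAT changes of all members, without passing. Ccl21a measured 7.87, 12.59, 8.85 and 10.36 in control mice, against 11.16, 12.16, 12.34 and 13.95 in scoparia mice. Control array 2 exceeded 3 of the 4 scoparia arrays, and the remaining control arrays lay below all of them. Ccl21c followed the same order, with 6.51, 11.55, 7.28 and 9.11 in control and 9.84, 10.84, 11.16 and 13.04 in scoparia mice. The change of Ccl21a was 2.48 ± 0.81 (adjusted p = 0.0588), and that of Ccl21c was 2.61 ± 0.89 (adjusted p = 0.0671). The copies are near-identical in sequence, so their probes may read the same transcripts and do not count as separate evidence. Without iWAT control array 2 both passed, Ccl21a at 3.37 (adjusted p = 0.0147) and Ccl21c at 3.58 (adjusted p = 0.0158). Without iWAT scoparia array 1 they also passed, at 2.89 (0.0429) and 3.07 (0.0478).

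Ccl19, the other Ccr7 ligand, lay at 6.41, 8.62, 6.28 and 7.87 in iWAT control mice and at 6.96, 7.99, 8.97 and 10.40 in iWAT scoparia mice. Ccr7 itself, which guides T cells and mature dendritic cells into lymph nodes, lay at 5.99, 8.64, 5.93 and 7.16 against 6.47, 7.30, 8.11 and 9.14. For both genes control array 2 was the highest control array and scoparia array 4 the highest of all 8, and the groups overlapped. Their changes were 1.28 ± 0.60 (adjusted p = 0.148) and 0.83 ± 0.55 (adjusted p = 0.303). Ccl19 passed without iWAT scoparia array 1 (1.82, adjusted p = 0.0471).

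The B cell attractant Cxcl13 ranged most widely, from 4.97 on iWAT control array 1, where it was not detected, over 10.67, 9.14 and 7.58 on control arrays 2 to 4. On the iWAT scoparia arrays it measured 7.89, 9.87, 10.95 and 11.84. Its receptor Cxcr5 stood at 4.51 (not detected), 9.47, 7.18 and 7.85 in control and at 6.85, 8.36, 9.43 and 10.21 in scoparia mice. Ligand and receptor were both lowest on control array 1 and highest on scoparia array 4, with overlapping groups. The changes were 2.05 ± 1.13 for Cxcl13 (adjusted p = 0.213) and 1.46 ± 0.81 for Cxcr5 (adjusted p = 0.216).

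Cxcr4, the receptor of Cxcl12, is expressed by many leukocytes. It measured 8.02, 9.26, 7.0 and 8.25 in iWAT control and 8.17, 9.04, 9.87 and 10.35 in iWAT scoparia mice. The groups overlapped, and the difference of 1.23 ± 0.46 did not pass (adjusted p = 0.0859). It passed without iWAT control array 2 (1.60, adjusted p = 0.0288) or iWAT scoparia array 1 (1.62, 0.033).

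**Figure D1:**
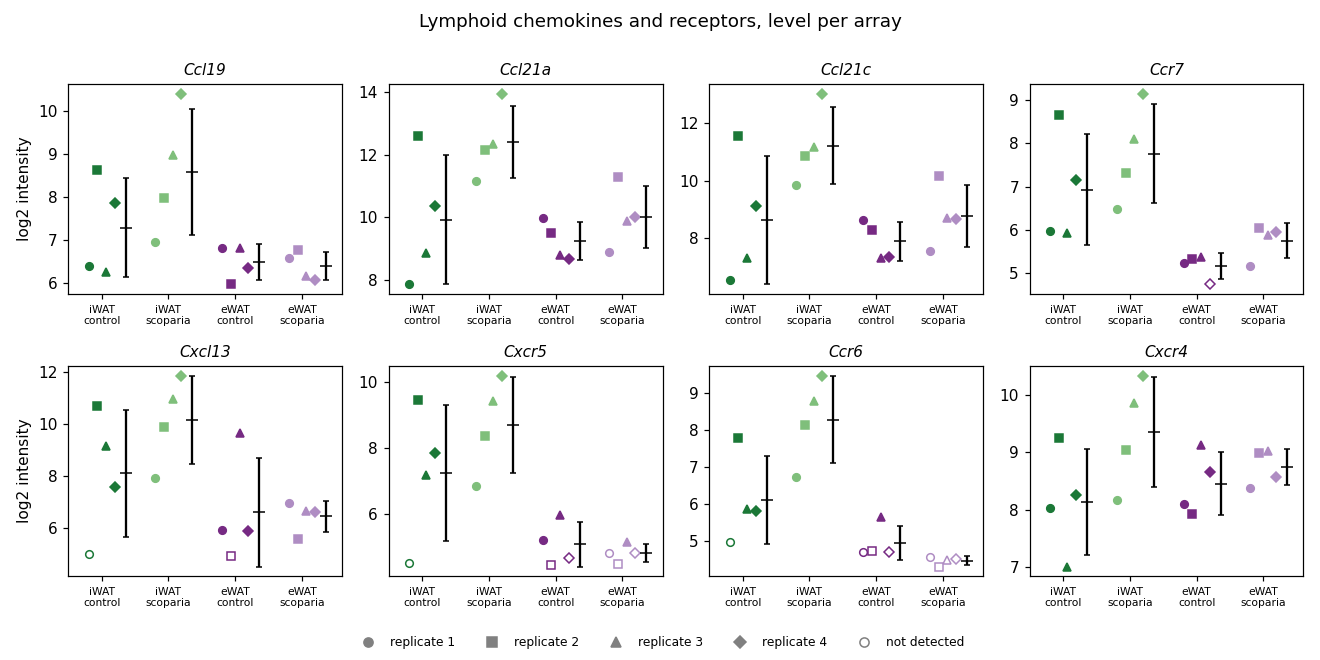
Log2 intensity of the 8 measured lymphoid genes on each array by depot and diet, with 1 symbol per replicate number, open where the probe was not detected, and bars for the mean ± SD (n = 4 arrays). For each of the 8 genes iWAT scoparia array 4 is the highest of the iWAT scoparia arrays, and the iWAT groups overlap.

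Markers of lymph node cells moved with these genes from array to array. The mean log2 level of the 8 lymphoid genes was 6.16, 9.82, 7.19 and 8.0 on iWAT control arrays 1 to 4, against 8.01, 9.21, 9.95 and 11.05 in scoparia mice. That of 7 B cell markers was 5.45, 8.72, 7.02 and 6.93 against 7.0, 8.37, 9.38 and 10.31. That of 6 genes listed as lymph node stroma (Glycam1, Chst4, Cr2, Ltb, Lta and Tnfrsf13c) was 4.78, 7.66, 5.95 and 6.04 against 6.22, 7.22, 8.05 and 9.21. Some of these, such as Tnfrsf13c and Ltb, are lymphocyte genes, so this list does not measure stroma apart from lymphocytes. In all 3 lists control array 1 was the lowest array and scoparia array 4 the highest.

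The mean of the T cell markers (7 of 10 measured) was 7.29, 9.31, 6.56 and 7.69 on iWAT control arrays 1 to 4. On iWAT scoparia arrays 1 to 4 it was 7.38, 8.38, 9.05 and 10.36. Unlike in the other 3 lists, control array 3 was the lowest here, and scoparia array 4 was again the highest. All 7 B cell, 7 T cell and 6 stroma list genes had positive changes in iWAT (medians 1.88, 1.20 and 1.40). Of these 0 passed, against 8.8% of all genes. Among them Ms4a1, Spib, Cr2 and Glycam1 were detected on only 6, 7, 6 and 7 arrays, and Lta and Tnfrsf13c on 8 each. The means of these genes were highest in iWAT of scoparia mice, so the detection filter favoured positive changes. Of the lists' defining genes, Pax5 and Cd8a were detected on no array. Glycam1, a mucin-like ligand of lymph node high endothelial venules, stood at 2.44 ± 0.85 (adjusted p = 0.0688). The part of lymphoid cells or lymph node tissue in the pieces in the chemokine values was not tested.

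The inflammatory chemokines of iWAT had no member past the threshold between diets. Of 15 measured genes of that list (14 members and Cxcr2, whose array name falls outside the rule), 8 were positive, with a median change of 0.12. With arrays scaled to equal medians it was -0.07. Ccl2, the main monocyte attractant, measured 7.60, 5.28, 5.67 and 6.29 in control and 6.41, 6.55, 6.73 and 5.74 in scoparia mice. The scoparia arrays lay inside the range of the control arrays, and the change was 0.15 ± 0.48 (adjusted p = 0.853).

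Ccl24, or eotaxin-2, a Ccr3 ligand that attracts eosinophils, measured 7.91, 7.21, 8.19 and 7.19 in iWAT control and 6.90, 7.05, 6.98 and 5.99 in iWAT scoparia mice. All scoparia arrays lay below all control arrays, at a change of -0.90 ± 0.28 (adjusted p = 0.0526). The T cell attractant Ccl5 measured 10.05, 11.66, 8.45 and 9.92 against 10.01, 10.94, 11.26 and 12.97. Its groups overlapped, and its change was 1.28 ± 0.61 (adjusted p = 0.157).

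In neither list stood Cxcl12 and Cxcl14, which with Ccl24 made up the 3 members whose iWAT diet groups did not overlap (8.57% of the members, against 13.4% of all genes). Cxcl12, which holds leukocytes and progenitors in tissue through Cxcr4, measured 11.43, 11.86, 11.70 and 11.63 in control and 11.97, 11.88, 12.19 and 12.19 in scoparia mice. Its change was 0.41 ± 0.18 (adjusted p = 0.131). Cxcl14, a constitutive epithelial and stromal chemokine, measured 10.11, 9.995, 9.77 and 10.09 against 9.56, 9.38, 8.76 and 8.04. Scoparia array 4 was the lowest, and the change of Cxcl14 was -1.06 ± 0.37 (adjusted p = 0.0728).

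In eWAT, 0 of 35 members passed between diets (limma, 0% of all 11050 genes passed). At an unadjusted p under 0.05 there were also 0 members, against 5.92% of all genes. The lymphoid list had 4 of 8 genes positive, with a median of 0.10 against 0.03 over all genes, and the inflammatory list 8 of 15, with a median of 0.02. The groups of 2 members, Ccr6 and Cxcr3, a chemokine receptor of activated T cells, did not overlap (5.71% of the members, against 5.14% of all genes). For Ccr6 the values were near background: 4.72, 4.74, 5.65 and 4.72 in control, detected on array 3 only, and 4.59, 4.32, 4.51 and 4.51 in scoparia mice, detected on 0 arrays.

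The 5 largest eWAT changes were those of Ccl21c, Ccl21a, Ccr7, Cx3cr1 and Cxcl14. Ccl21a measured 9.98, 9.51, 8.80 and 8.68 in control and 8.89, 11.28, 9.88 and 10.02 in scoparia mice, with scoparia array 2 the highest and overlapping groups. Ccl21c measured 8.61, 8.28, 7.28 and 7.32 against 7.55, 10.18, 8.70 and 8.64. The change of Ccl21a was 0.77 ± 0.81 (adjusted p = 0.942), and that of Ccl21c was 0.89 ± 0.89 (0.938). Ccr7 stood at 0.58 ± 0.55 (adjusted p = 0.938), and Cxcl14 at 0.50 ± 0.37 (adjusted p = 0.927).

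Cx3cr1, the fractalkine receptor of monocytes and macrophages, stood at -0.51 ± 0.38 (adjusted p = 0.927) in eWAT. Its values there were 6.74, 5.49, 4.81 and 6.56 in control and 5.78, 5.19, 5.21 and 5.39 in scoparia mice, with control arrays 1 and 4 the highest. In iWAT its values were 4.68, 4.69, 4.97 and 5.02 in control mice, all without detection, and 4.86, 5.45, 5.48 and 6.54 in scoparia mice, with detection on arrays 2 to 4. There it was at least 1.34-fold higher (adjusted p = 0.183).

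Whether the extract acted unlike in the depots was asked with the difference of its effects, for which 0 of 35 members passed (limma, 0.0543% of all genes did). At an unadjusted p under 0.05 there were 4 members (11.4%), against 16.2% of all genes. The smallest adjusted p values were those of Ccr6 (adjusted p = 0.14), Ccl27a (-1.18 ± 0.36, 0.155) and Cxcl14 (-1.55 ± 0.53, 0.186). Cxcl13 stood at 2.20 ± 1.59 (0.486), Cxcr5 at 1.73 ± 1.14 (0.445), Ccl21a at 1.71 ± 1.14 (0.448) and Ccl21c at 1.71 ± 1.26 (0.494). With array weights Ccr6 passed (adjusted p = 0.0383). No size is given for Ccr6, whose eWAT probe was detected on 1 control and 0 scoparia arrays, and that of Cxcr5 rests on detection on 2 and 1 eWAT arrays.

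**Figure D2:**
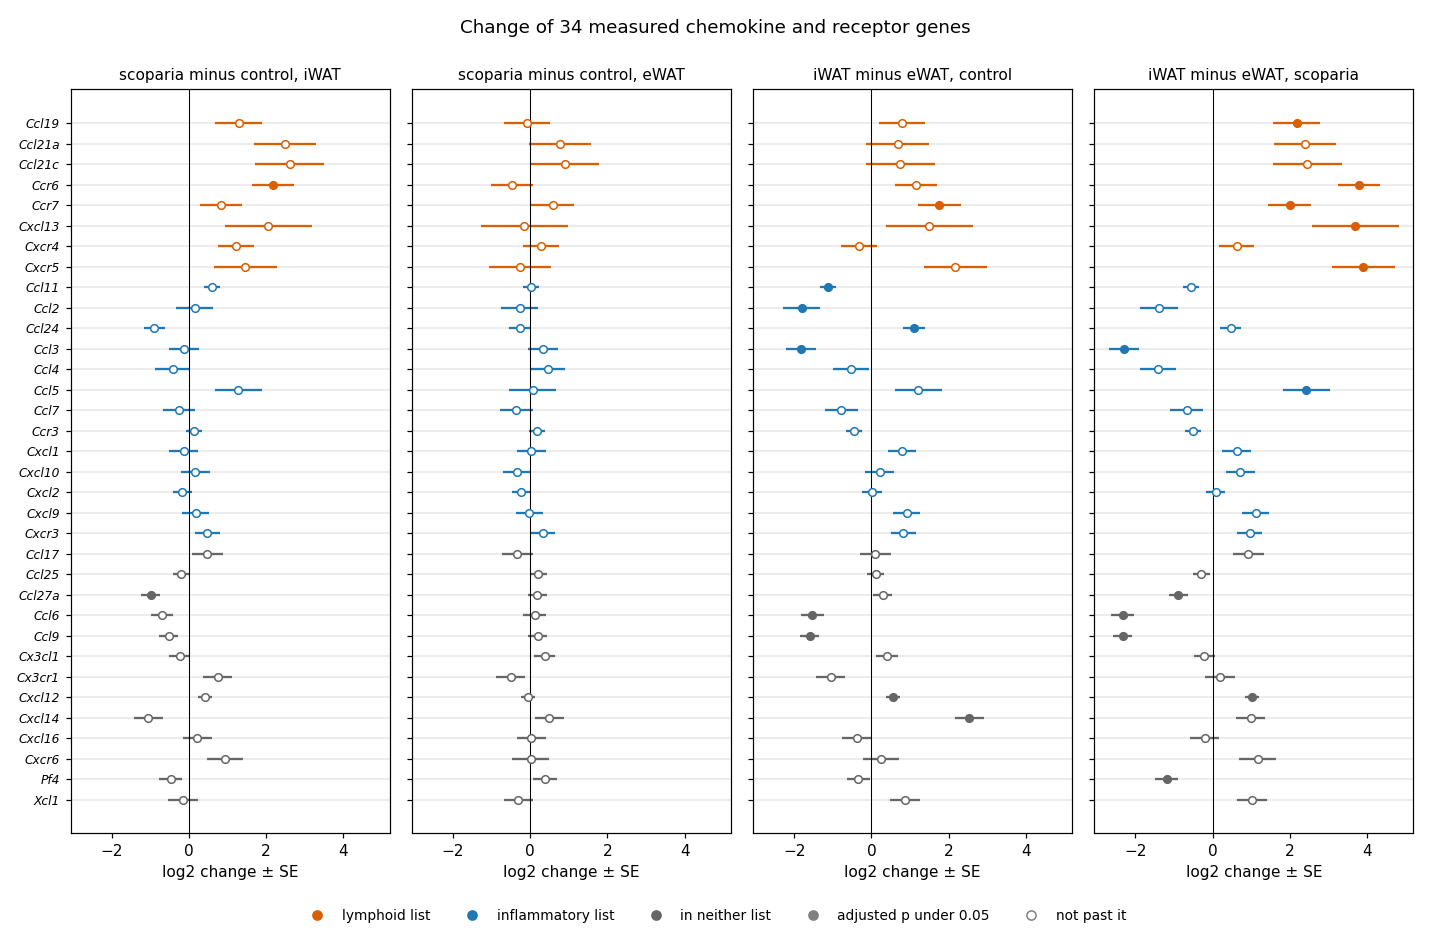
Log2 change ± SE of 34 of the 35 measured genes for the diet in iWAT and eWAT and for iWAT minus eWAT in each diet, with filled points past an adjusted p of 0.05 and colours for the lists. Filled points number 2, 0, 9 and 12 from left to right, and the lymphoid genes lie to the right of 0 in iWAT against eWAT in scoparia mice.

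Between depots, the control mice had higher levels of several myeloid chemokines in eWAT and of Cxcl14, Ccl24 and the receptor Ccr7 in iWAT. The Cxcl12 probe used was also higher in iWAT, but the other kept Cxcl12 probes were lower there. In control mice 10 of 35 members passed (28.6%, against 24.8% of all genes). Of these 4 were higher in iWAT (13.1% of all genes were) and 6 lower (11.7% of all genes). In scoparia mice 13 of 35 passed (37.1%, against 10.6% of all genes), 7 higher in iWAT (20% of the members, against 4.35% of all genes) and 6 lower (17.1%, against 6.24%). At an unadjusted p under 0.05 51.4% of the members and 40.5% of all genes passed in control mice, while in scoparia mice 71.4% and 23.7% did. The depot groups of 9 members did not overlap in control mice (25.7%, against 17.9% of all genes), and those of 17 did not in scoparia mice (48.6%, against 24.9%). Each depot comparison shares its arrays with the diet comparisons, so they are not independent of each other.

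Among the lymphoid genes, Ccr7 was the one that passed in control mice. Its eWAT levels were 5.23, 5.33, 5.39 and 4.75 in control and 5.16, 6.05, 5.87 and 5.94 in scoparia mice, the fourth control array without detection. Every iWAT array lay above every eWAT array of its diet. Ccr7 was higher in iWAT by 1.76 ± 0.55 in control mice (3.38-fold, adjusted p = 0.0322) and by 2.0 ± 0.55 in scoparia mice (adjusted p = 0.0298). The control call was lost in 8 of 25 settings. These include no detection filter (adjusted p = 0.0589) and leaving out iWAT control array 2 or 4 or eWAT control array 1, 3 or 4 (0.0558 to 0.0834). The scoparia call was lost without iWAT scoparia array 3 or 4 or any single eWAT scoparia array (0.0548 to 0.0932).

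In scoparia mice, Cxcr5, Ccr6, Cxcl13 and Ccl19 were also higher in iWAT. Cxcr5 measured 4.81, 4.47, 5.14 and 4.82 in eWAT scoparia mice, detected on array 3 only, and 5.21, 4.46, 5.97 and 4.67 in eWAT control mice. All iWAT scoparia arrays lay above these. The depot difference of Cxcr5 in scoparia mice passed at 3.90 ± 0.81 (adjusted p = 0.00522), a size that rests on eWAT values at background on 3 of 4 arrays, and 2 other probes stood at 1.97 (0.0258) and 2.83 (0.0068). Ccr6, not detected on any eWAT scoparia array, was at least 9.37-fold higher in iWAT (adjusted p = 0.000341). In control mice, with detection on 2 and 1 eWAT arrays, Cxcr5 stood at 2.17 ± 0.81 (adjusted p = 0.059) and Ccr6 at 1.15 ± 0.54 (adjusted p = 0.12). Cxcr5 passed there with equal medians (adjusted p = 0.0435), without iWAT control array 1 (0.00631) and without iWAT scoparia array 1 or 4 (0.045 and 0.0499).

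Cxcl13 measured 6.94, 5.57, 6.64 and 6.61 in eWAT scoparia mice, below all iWAT scoparia arrays. It was higher in iWAT by 3.70 ± 1.13 (13-fold, adjusted p = 0.0454). In eWAT control mice it was 5.92, 4.91, 9.64 and 5.89, with array 3 far above the others, and the depot difference was 1.5 ± 1.13 (adjusted p = 0.326). The scoparia call for Cxcl13 held in 14 of 25 settings. It was lost without any of iWAT control array 4, iWAT scoparia arrays 2, 3 and 4, eWAT control arrays 1 and 4 and the 4 eWAT scoparia arrays (adjusted p from 0.0566 to 0.13).

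Ccl19 lay at 6.58, 6.78, 6.16 and 6.09 in eWAT scoparia mice, again below all iWAT scoparia arrays, and at 6.83, 5.98, 6.82 and 6.36 in eWAT control mice. It was higher in iWAT of scoparia mice by 2.17 ± 0.60 (4.51-fold, adjusted p = 0.0289), and stood at 0.80 ± 0.60 in control mice (adjusted p = 0.326). With the animal as a replicate block the scoparia call of Ccl19 was lost (adjusted p = 0.0583). It was also lost without iWAT scoparia array 3 or 4 or any single eWAT scoparia array (0.0528 to 0.0827).

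Ccl21a and Ccl21c stood at 2.39 ± 0.81 (adjusted p = 0.0722) and 2.45 ± 0.89 (adjusted p = 0.0945) between depots in scoparia mice, and at 0.68 and 0.74 in control mice. In scoparia mice Ccl21a passed in 5 of 25 settings and Ccl21c in 3 of 25, at an adjusted p down to 0.00567 and 0.0113. Among these settings, both passed without iWAT control array 2 (adjusted p = 0.0212 and 0.0311), and Ccl21a passed without iWAT control array 1. Cxcr4 stood at -0.32 in control and 0.62 ± 0.46 in scoparia mice (adjusted p = 0.625 and 0.469). Its eWAT levels were 8.10, 7.93, 9.14 and 8.66 in control and 8.38, 8.99, 9.02 and 8.58 in scoparia mice, inside the iWAT range of the same diet.

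The median depot change of the lymphoid list was 0.98 in control mice (7 of 8 positive) and 2.42 in scoparia mice (8 of 8 positive), against 0.08 and 0.02 over all genes. Within animals, iWAT minus eWAT of Cxcr5 was -0.70, 5.01, 1.21 and 3.185 in control animals 1 to 4 and 2.04, 3.89, 4.29 and 5.39 in scoparia animals 16, 17, 18 and 20. That of Cxcl13 was -0.95, 5.76, -0.49 and 1.69 against 0.95, 4.31, 4.31 and 5.24. All 4 scoparia animals were positive for both genes, while control animals 1 and 3 were negative for Cxcl13 and control animal 1 for Cxcr5.

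The cell markers differed between depots as well. B cell markers passed as higher in iWAT for 7 of 7 genes in scoparia and 1 of 7 in control mice. T cell markers did so for 6 and 4 of 7, against 4.35% and 13.1% of all genes. Ms4a1 and Spib of the B cell list were detected on only 6 and 7 arrays. Their means were highest in iWAT of scoparia mice, so the detection filter favoured these calls. On eWAT arrays the B cell mean was 4.96 to 5.93 and that of the lymph node stroma list 4.65 to 5.03. Of the stroma list, 5 of 6 genes passed as higher in iWAT of scoparia mice. In control mice 1 passed as higher and 1, Chst4, as lower. Of this list, Cr2, Glycam1, Lta and Tnfrsf13c were detected on only 6, 7, 8 and 8 arrays. Their means were also highest in iWAT of scoparia mice, so the detection filter favoured their calls too. Chst4 had means of 4.63 in iWAT and 5.51 in eWAT of control mice, and of 5.25 and 5.79 in scoparia mice. Glycam1, not detected on any eWAT array, was at least 42.4-fold higher in iWAT of scoparia mice (adjusted p = 0.000334) and at least 8.21-fold in control mice (adjusted p = 0.00823). The part of lymphoid cells or lymph node tissue in the chemokine differences was not tested.

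**Figure D3:**
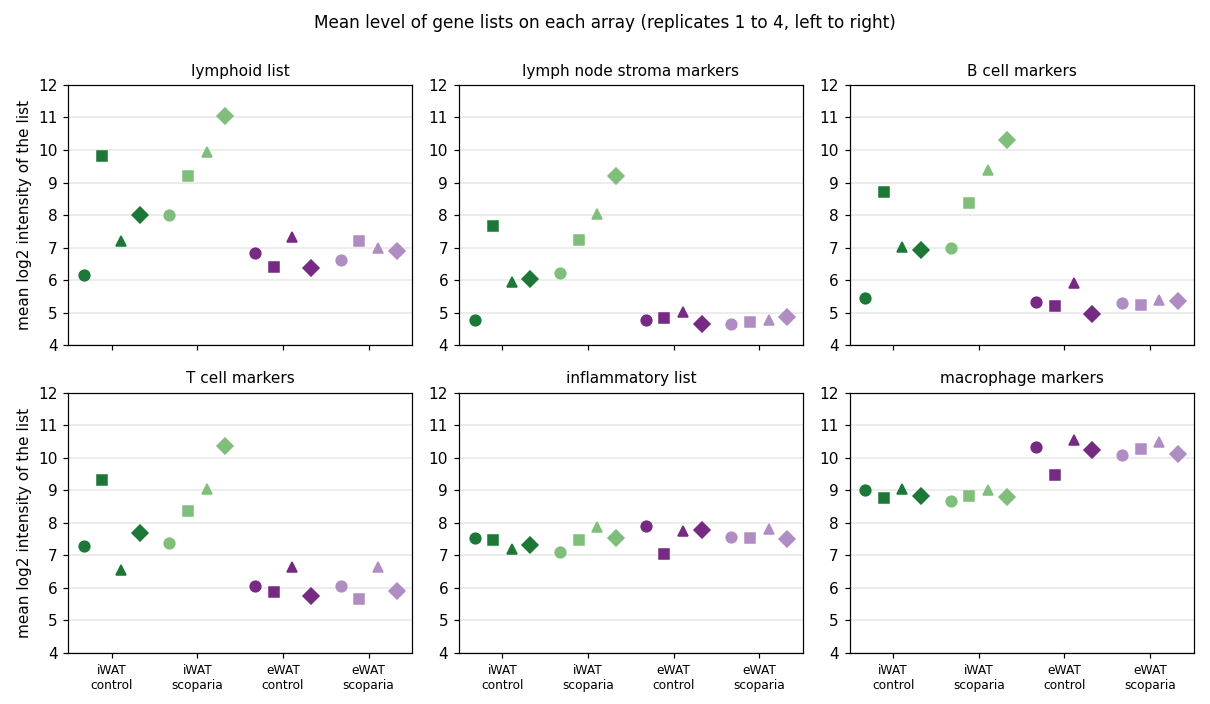
Mean log2 level of 6 gene lists on each array by depot and diet, 1 point per array. The lymphoid, B cell, T cell and lymph node stroma lists spread over the iWAT arrays, the lymphoid list from 6.16 to 11.05, and lie lower and closer together in eWAT, the lymphoid list between 6.38 and 7.34.

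Several inflammatory and myeloid members were lower in iWAT. Ccl3, a macrophage inflammatory protein that attracts monocytes and T cells, measured 7.14, 5.40, 7.74 and 7.25 in eWAT control and 7.01, 7.31, 7.10 and 7.44 in eWAT scoparia mice. In iWAT it was 5.50, 5.24, 4.57 and 4.89 in control and 4.41, 4.77, 5.58 and 4.87 in scoparia mice, with detection on 2 and 1 arrays. The depots overlapped in control mice, at eWAT control array 2, and were apart in scoparia mice. Ccl3 was lower in iWAT, at -1.83 ± 0.39 in control (adjusted p = 0.00478) and at -2.31 ± 0.39 in scoparia mice (adjusted p = 0.00125).

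Ccl9 and Ccl6 are related CC ligands of rodents that act on myeloid cells. Ccl9 measured 12.04, 11.71, 11.97 and 12.04 in iWAT control, 11.22, 11.66, 11.71 and 11.07 in iWAT scoparia, 13.67, 12.70, 14.07 and 13.75 in eWAT control and 13.44, 13.94, 13.90 and 13.69 in eWAT scoparia mice. The depots were apart in both diets, with eWAT control array 2 nearest to iWAT. The differences of Ccl9 were -1.60 ± 0.25 (3.04-fold, adjusted p = 0.000643) in control and -2.33 ± 0.25 (5.02-fold, adjusted p = 3.41e-05) in scoparia mice.

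Ccl6 measured 9.27, 8.17, 8.59 and 8.78 in iWAT control and 7.94, 8.54, 8.29 and 7.27 in iWAT scoparia mice. In eWAT it was 10.39, 9.59, 10.69 and 10.26 in control and 10.04, 10.45, 10.45 and 10.43 in scoparia mice, all above iWAT. Its differences were -1.53 ± 0.29 (adjusted p = 0.00255) and -2.33 ± 0.29 (adjusted p = 0.00014). Within animals, iWAT minus eWAT of Ccl9 ran from -2.10 to -0.99 in control and from -2.62 to -2.19 in scoparia mice. The calls of Ccl3, Ccl6 and Ccl9 held in all 25 settings in both diets.

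Ccl2 measured 9.06, 7.0, 7.35 and 8.67 in eWAT control and 8.12, 7.80, 7.84 and 7.22 in eWAT scoparia mice. Against the iWAT levels given above, the control groups overlapped and the scoparia groups did not. Ccl2 was lower in iWAT of control mice, at -1.81 ± 0.48 (3.50-fold, adjusted p = 0.0147), and stood at -1.39 ± 0.48 in scoparia mice (adjusted p = 0.0784). With the animal as a replicate block Ccl2 also passed in scoparia mice (adjusted p = 0.00158). Its control call was lost without eWAT control array 1 or 4 (0.0502 to 0.0564) and with only the 8 arrays compared (0.0841).

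Ccl11, or eotaxin-1, the Ccr3 ligand made by stromal cells, measured 10.26, 10.55, 11.24 and 10.15 in iWAT control and 11.22, 11.22, 11.12 and 10.998 in iWAT scoparia mice. In eWAT it was 11.66, 11.85, 11.85 and 11.39 in control and 11.68, 11.69, 11.57 and 11.88 in scoparia mice, above all iWAT arrays. The differences were -1.13 ± 0.20 (2.20-fold, adjusted p = 0.00177) in control and -0.57 ± 0.20 (adjusted p = 0.0895) in scoparia mice. Its second probe had the opposite sign in control mice (0.38, adjusted p = 0.275), so that the direction of Ccl11 depends on the probe.

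Pf4, platelet factor 4, which macrophages also express, measured 10.91, 10.67, 11.38 and 10.84 in iWAT control and 10.76, 10.81, 10.66 and 9.69 in iWAT scoparia mice. In eWAT it was 11.34, 10.38, 11.58 and 11.88 in control and 11.41, 11.93, 11.78 and 11.57 in scoparia mice. The depots overlapped in control and not in scoparia mice, where Pf4 was lower in iWAT, at -1.19 ± 0.30 (2.29-fold, adjusted p = 0.0175), against -0.34 in control mice (0.402). That call was lost without iWAT scoparia array 4 or eWAT scoparia array 2 or 3 (0.0535 to 0.0623). Ccl27a, with 7.61, 8.09, 8.72 and 8.28 in eWAT control and 8.24, 8.32, 8.14 and 8.74 in eWAT scoparia mice, was lower in iWAT of scoparia mice, at -0.89 ± 0.25 (adjusted p = 0.0336). It stood at 0.29 in control mice (0.398), and its scoparia call was lost without any of 7 of the 8 scoparia arrays, iWAT scoparia array 1 excepted (0.0503 to 0.108).

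Beside these members, macrophage markers were lower in iWAT: 9 of 10 passed in control and 8 of 10 in scoparia mice. Of all genes 11.7% and 6.24% passed as lower. Their mean level was 8.66 to 9.03 on iWAT arrays and 9.46 to 10.53 on eWAT arrays. The part of macrophage number in the chemokine values was not tested.

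Outside the lymphoid list, Cxcl14, Ccl24, Cxcl12 and Ccl5 were higher in iWAT in 1 diet or both. Cxcl14 measured 7.86, 6.15, 8.04 and 7.76 in eWAT control and 8.04, 7.96, 8.29 and 7.52 in eWAT scoparia mice. In control mice all iWAT arrays lay above these, by 2.54 ± 0.37 (5.81-fold, adjusted p = 0.000488), the largest depot difference of a member there. In scoparia mice the depots overlapped, and Cxcl14 stood at 0.99 ± 0.37 (adjusted p = 0.111).

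Ccl24 measured 6.16, 6.99, 6.57 and 6.38 in eWAT control and 6.44, 5.87, 6.26 and 6.47 in eWAT scoparia mice. It was higher in iWAT of control mice, without overlap, by 1.10 ± 0.28 (2.15-fold, adjusted p = 0.0118), and stood at 0.47 in scoparia mice (0.34). The control call of Ccl24 was lost with only the 8 arrays compared (0.0509). Ccl5, with 9.04, 8.11, 9.59 and 8.5 in eWAT control and 8.72, 8.52, 9.56 and 8.66 in eWAT scoparia mice, was higher in iWAT of scoparia mice by 2.43 ± 0.61 (5.39-fold, adjusted p = 0.0175). All iWAT scoparia arrays lay above the eWAT scoparia arrays, and in control mice Ccl5 stood at 1.21 ± 0.61 (0.147). The Ccl5 call was lost without iWAT scoparia array 4 or eWAT scoparia array 2 (0.0548 and 0.0569).

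Cxcl12 measured 11.19, 11.42, 10.61 and 11.17 in eWAT control and 11.24, 10.80, 10.94 and 11.20 in eWAT scoparia mice, below all iWAT arrays of the same diet. It was higher in iWAT by 0.56 ± 0.18 in control (1.47-fold, adjusted p = 0.0351) and by 1.01 ± 0.18 in scoparia mice (2.02-fold, adjusted p = 0.00173). In control mice its other kept probes were lower instead, at -1.06 and -0.97 (adjusted p = 0.0289 and 0.0275), while in scoparia mice they stood at 0.61 and 0.62, so that the control direction depends on the probe. With the animal as a replicate block the control call was lost (0.0506). It was also lost without iWAT control array 2 or 4 or eWAT control array 1, 3 or 4 (up to 0.110).

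Cxcl9, an interferon-induced ligand of Cxcr3, stood at 0.92 ± 0.35 in control (adjusted p = 0.062) and 1.11 ± 0.35 in scoparia mice (adjusted p = 0.0501), and passed in both with the animal as a replicate block (0.0203 and 0.0116). Over the 15 inflammatory genes the median depot change was 0.02 in control and 0.07 in scoparia mice. Past the threshold, 1 was higher and 4 lower in control mice, where 13.1% and 11.7% of all genes were. In scoparia mice 2 were higher and 2 lower, where 4.35% and 6.24% of all genes were. These 2 higher genes were Ccl5 and the neutrophil receptor Cxcr2, which was at least 1.53-fold higher in iWAT (limma adjusted p = 0.0351). Cxcr2 was detected on 4 of the 16 arrays, the fewest that the filter allows, and on no eWAT scoparia array. Its means were 5.66 in iWAT and 4.47 in eWAT of scoparia mice, so it was near background and its call depends on the filter.

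**Figure D4:**
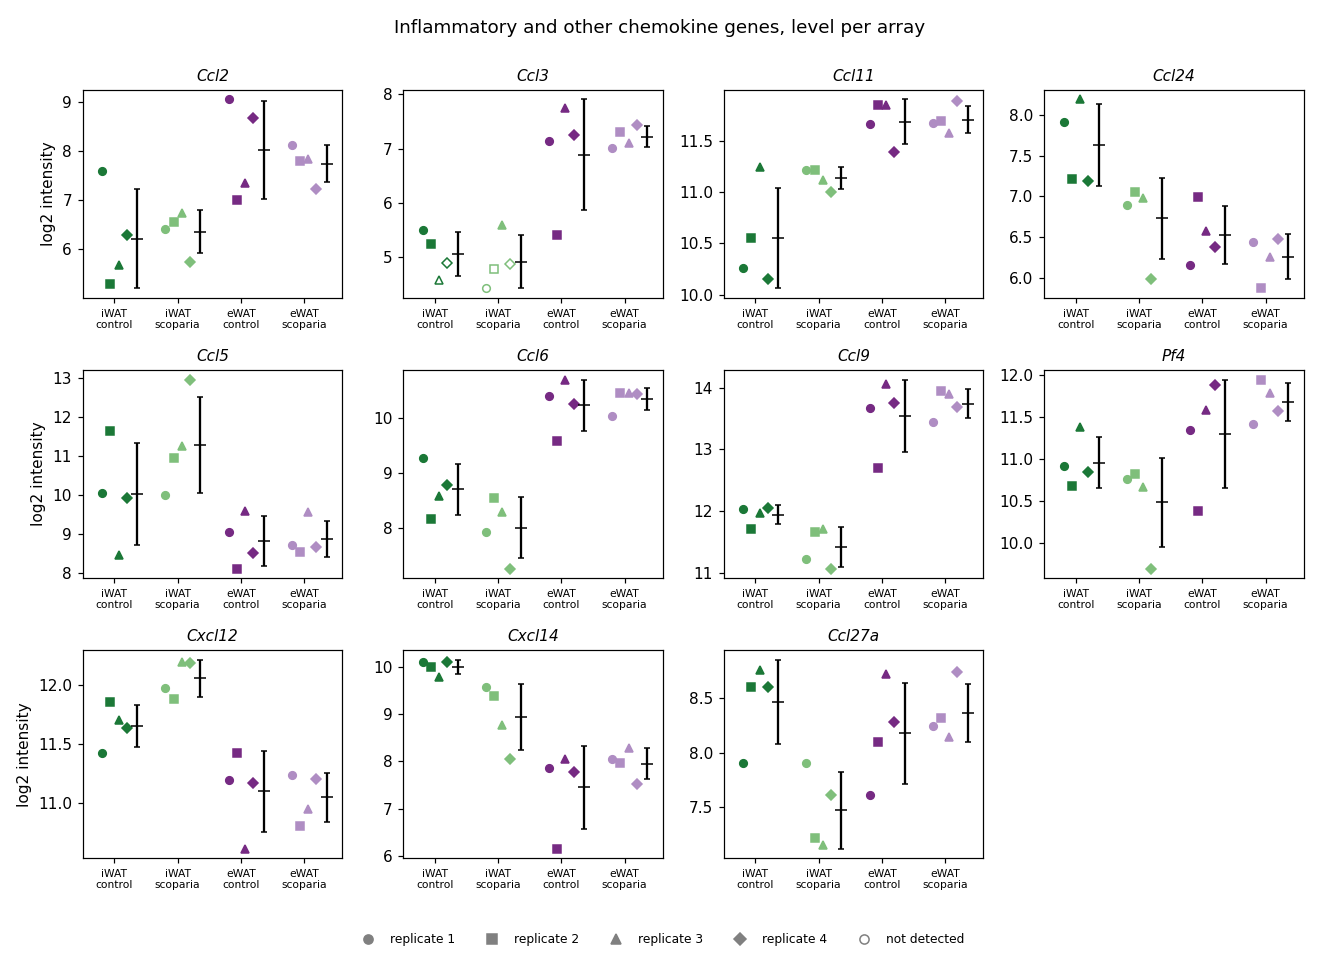
Log2 intensity of inflammatory and other members on each array by depot and diet, with 1 symbol per replicate number, open where the probe was not detected, and bars for the mean ± SD (n = 4 arrays). Ccl6 shows iWAT arrays between 7.27 and 9.27 and eWAT arrays between 9.59 and 10.69 with no overlap.

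A further 13 measured members passed in no comparison. Ccl4 had means of 7.44 ± 0.28 and 7.01 ± 0.52 in iWAT control and scoparia mice and of 7.97 ± 1.32 and 8.42 ± 0.28 in eWAT, and stood at -1.41 ± 0.46 between depots in scoparia mice (adjusted p = 0.0635). Ccl7, Cxcl1, Cxcl2, Cxcl10, Cxcl16, Ccl17, Ccl25, Cx3cl1, Xcl1 and the receptors Ccr3, Cxcr3 and Cxcr6 also stayed on that side of the threshold. Cxcr3, the receptor of Cxcl9 and Cxcl10, came closest of the last, at 0.96 between depots in scoparia mice (adjusted p = 0.0683).

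For 18 member genes no probe met the detection filter. On no array detected were Ccl1, Ccl20, Ccl26, Ccl28, Cxcl3, Cxcl11, Cxcl15, Cxcl17, Ccr1, Ccr1l1, Ccr2, Ccr4, Ccr9 and Ccr10. Ackr3 was detected on 3 arrays and Ccl22, Ccr8 and Xcr1 on 1 each. This says that these probes did not exceed background, not that the genes are silent.

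Of 22 other chemokine pathway genes, such as scavenging receptors and signalling proteins, 18 were measured, Pf4 among them. In iWAT 1 of the 18 passed between diets, against 8.8% of all genes. It was the phospholipase Plcb3, which fell by 0.54 ± 0.16 (limma adjusted p = 0.047). In eWAT 0 passed, and 0% of all genes did. Between depots Ackr1, a scavenger receptor of venular endothelium, was higher in iWAT by 1.23 ± 0.16 in control (adjusted p = 0.000152) and by 0.95 ± 0.16 in scoparia mice (adjusted p = 0.00111). Rgs1, which damps signals of G protein-coupled receptors in leukocytes, was lower, at -2.66 ± 0.57 (adjusted p = 0.00497) and -2.84 ± 0.57 (adjusted p = 0.00415). The receptor kinase Grk6 was higher in iWAT of scoparia mice by 0.88 ± 0.24 (adjusted p = 0.025). Dpp4, a peptidase that trims chemokines, had the largest diet change of the list in iWAT, at 1.53 ± 0.54 (adjusted p = 0.0699).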

How the data were processed

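Bead arrays (16) were hybridised with biotin-labelled RNA made from 400 ng of total RNA, per the labels. The authors deposited scanner signal intensities with a detection p-value per probe, per the file headers, on a linear scale (lowest value 92.2). They also deposited normalized intensities, of which the sources used here do not describe the steps. GenomeStudio and limma 3.18.13 appear in the submitters' processing notes, without a role.

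Scanner intensities were processed with neqc in limma 3.58.1 (R 4.3.3; normexp background, offset of 16, quantile normalization, log2). Probes detected (p under 0.05) on 4 or more arrays were kept (15052), and the brightest kept probe stood for each of 11050 genes. RefSeq (GRCm38.p6) symbols named 20736 of 25697 probes, unique synonyms 3872 more, and 1089 kept their array name. Limma's lmFit and eBayes, checked on simulated data, used 4 group means over all 16 arrays, with Benjamini-Hochberg adjustment over all genes. "At least N-fold" marks genes not detected in 1 of the groups: the dim group was set, per array, to the higher of the probe's value and the lowest detected value.

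Members follow from array names, and 1 measured member that the counts include is not reported by name here. Members, gene lists, tests and named genes (measured lymphoid genes, members past the threshold in any contrast and the 5 largest changes per contrast) were chosen with earlier results of these data known. Animal numbers in the labels are alike in both depots, so the animal served as a block in an alternative fit. An animal's 2 arrays correlated at -0.21 to 0.32 in their deviations from group means. Other alternatives were equal medians, the deposited normalized values (floored at 1, plus 16, log2), other detection filters, single probes, array weights, fewer arrays and single arrays left out. No 2 arrays were identical (0 pairs), and 0 value columns lacked a sample. How RNA samples relate to tissue pieces is not given in the labels, so the p values reflect the spread of these samples, which may be technical in part.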

Additional observations from a re-analysis of the deposited data

Results flagged for a closer look

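For 20 named genes the highest and lowest arrays of each group were compared with the others (80 groups), and in 5 groups a single array lay far from the remaining 3, relative to the range of the group (Dixon's criterion). Chance alone gives about 1 such group in 20. eWAT control array 2 was low for Cxcl14 (6.15, the others 7.76 to 8.04). iWAT scoparia array 4 was low for Ccl24 (5.99, the others 6.90 to 7.05) and for Pf4 (9.69, the others 10.66 to 10.81). eWAT control array 3 was high for Ccr6 (5.65, the others 4.72 to 4.74), and eWAT scoparia array 1 was low for Ccl6 (10.04, the others 10.43 to 10.45).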

How the results depend on the processing

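The counts and the changes of single genes were recomputed under 25 further settings, 24 for the difference between depots. The list medians were recomputed under the same settings except the animal block. For the diet in iWAT the count of members past the threshold was 2. It was 5 with equal medians (1 higher and 4 lower, where 1 of each had passed) and 0 with only the 8 arrays compared or without both iWAT control arrays 1 and 4. It ran from 0 to 8 as single arrays were left out (8 when iWAT control array 2 was left out, 7 for iWAT scoparia array 1 and 4 for eWAT control array 2). For the diet in eWAT it was 0 throughout. For the depots in control mice (10) it was 6 with only the 8 arrays compared and 7 to 15 with single arrays left out. In scoparia mice (13) it was 27 with array weights, 20 with only the 8 arrays compared and 7 to 16 with single arrays left out (7 without eWAT scoparia array 2 and 8 without iWAT scoparia array 4). The estimation of array weights stopped before convergence, so those values are uncertain. For the difference between depots (0) it was 2 with array weights and 0 without any single array. With the animal as a replicate block the counts were 2, 0, 10, 14 and 0, and no call of a member changed but those given beside the results. Equal medians moved the median of all genes from -0.08 to -0.24 for the difference between depots and from 0.02 to -0.09 for the depots in scoparia mice.

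The median of the lymphoid list ran, with single arrays left out, from 1.09 to 2.46 for the diet in iWAT (1.17 without both iWAT control arrays), from -0.08 to 0.57 in eWAT, from 0.48 to 1.49 for the depots in control mice, from 1.87 to 2.86 in scoparia mice and from 1.01 to 2.53 for their difference. That of the inflammatory list stayed between -0.18 and 0.23 in these settings. It was -0.45 for the depots in control mice without both iWAT control arrays and -0.57 for those in scoparia mice with every probe tested singly. Changes near 0 turned sign: with single arrays left out, the eWAT diet change ran from -0.27 to 0.019 for Ccl19, from -0.71 to 0.87 for Cxcl13 (0.026 with array weights) and from -0.47 to 0.029 for Cxcr5. The depot change in control mice ran from -0.22 to 1.35 for Ccl21a, from -0.23 to 1.43 for Ccl21c and from -0.70 to 0.053 for Cxcr4. The causes were not tested. The number of arrays, 4 in each group, limits the precision, and probes near background give bounds only.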

Other observations

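Within animals, iWAT minus eWAT on the log2 scale differed in sign between control mice for several lymphoid genes and not between scoparia mice. For Ccl21a it was -2.11, 3.08, 0.05 and 1.67 in control animals 1 to 4 and 2.27, 0.88, 2.46 and 3.93 in scoparia animals 16, 17, 18 and 20. For Ccl19 it was -0.42, 2.64, -0.54 and 1.51 against 0.38, 1.21, 2.80 and 4.31. Ccr6 and Ccr7 were positive in all 8 animals, Ccr6 from 0.22 to 3.05 in control and from 2.14 to 4.96 in scoparia mice, and Ccr7 from 0.54 to 3.31 and from 1.25 to 3.20. Ccl3 was negative in all 8 animals, from -3.18 to -0.15 in control and from -2.60 to -1.52 in scoparia mice. Control animal 2 had the highest difference of the control animals for each of these 5 genes. The animal numbers come from the labels.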
